A study of Mus musculus with 25 samples.

Results

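The caspases, the Bcl2 family and the genes that act directly on them make up the core machinery of programmed cell death, and 38 of them were followed over 5 ages in the salivary glands of a mouse model of Sjögren's syndrome. The members were every gene with a symbol of the form Casp plus a number or beginning with Bcl2. Named inhibitors, adaptors and other death factors were added. Each member needed a probe set on the array with its symbol alone. They are 38 of the 18194 genes measured and carry 98 of 34958 probe sets with 1 symbol. An expressed probe set, meaning one with a mean log2 value above 3.27 (the median over all probe sets of the array), was present for 34 members and for 11696 genes in all. The 4 members without one were Bcl2l10, Bcl2l15, Casp4 and Casp14, and their values stayed between 2.01 and 2.85 in all 25 mice. Bax was not analysed here, and 3 probe sets shared by 3 or 4 copies of Bcl2a1 were left out because their signal cannot be given to 1 gene.

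The mice were male C57BL/6.NOD-Aec1Aec2 animals of 4, 8, 12, 16 and 20 weeks, 5 per age, and each mouse gave 1 Affymetrix whole-genome mouse array from 1 lobe each of the submandibular, sublingual and parotid glands with the salivary lymph nodes removed. Every mouse at every age carried the same pair of intervals from the non-obese diabetic (NOD) mouse on a C57BL/6 background, Aec1 on chromosome 3 and Aec2 on chromosome 1. The 5 mice of an age came from more than 1 litter, the labels do not say which, and mice of the parental strain were not analysed here, so growth, ageing and disease cannot be told apart in these comparisons. Of the members, Bcl2, Bok, Casp8 and Cflar lie on chromosome 1 and Bcl2l15, Casp6 and Mcl1 on chromosome 3. Whether they lie within the intervals was not examined.

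In the mitochondrial pathway of apoptosis, BH3-only proteins sense damage and engage the prosurvival Bcl2 proteins, which otherwise hold the pore-forming proteins Bax and Bak1 in check. Once the outer mitochondrial membrane is open, cytochrome c joins Apaf1 to activate Casp9, which cleaves the executioner caspases, while inhibitor of apoptosis (IAP) proteins restrain caspases. Death receptors reach the same executioners through Fadd and Casp8, a step that Cflar modulates, and loss of secretory acinar cells by apoptosis is among the changes described in glands affected by Sjögren's syndrome.

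In these glands 5 members passed a comparison with 4 weeks. Aifm2 rose at 8, 12 and 16 weeks, Bcl2l1, Bcl2l14 and Cflar rose at 12 weeks, and Bcl2l11, which encodes the BH3-only protein Bim, fell at 20 weeks. The promoters of these 5 genes are shown because they were the members that moved, in both directions. For each gene the window at its most upstream RefSeq start is printed, 250 bases before to 50 after the start on the gene's strand (RefSeq, mouse build GRCm38.p6), with capitals marking the motifs searched. A window was found for 34 of 38 members.
Aifm2, chr10:61720399-61720698, plus strand: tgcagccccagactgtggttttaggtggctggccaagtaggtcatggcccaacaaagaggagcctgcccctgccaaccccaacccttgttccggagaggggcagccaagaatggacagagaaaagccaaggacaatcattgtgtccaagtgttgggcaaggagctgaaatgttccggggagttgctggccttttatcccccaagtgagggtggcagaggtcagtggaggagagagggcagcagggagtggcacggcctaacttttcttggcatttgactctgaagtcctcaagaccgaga
Bcl2l1, chr2:152831679-152831978, minus strand: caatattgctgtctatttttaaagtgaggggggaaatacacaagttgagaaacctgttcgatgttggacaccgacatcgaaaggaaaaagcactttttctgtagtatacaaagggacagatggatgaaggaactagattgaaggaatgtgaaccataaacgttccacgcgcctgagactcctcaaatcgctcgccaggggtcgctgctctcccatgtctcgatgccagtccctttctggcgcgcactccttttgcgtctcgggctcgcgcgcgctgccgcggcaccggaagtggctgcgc
Bcl2l14, chr6:134396079-134396378, plus strand: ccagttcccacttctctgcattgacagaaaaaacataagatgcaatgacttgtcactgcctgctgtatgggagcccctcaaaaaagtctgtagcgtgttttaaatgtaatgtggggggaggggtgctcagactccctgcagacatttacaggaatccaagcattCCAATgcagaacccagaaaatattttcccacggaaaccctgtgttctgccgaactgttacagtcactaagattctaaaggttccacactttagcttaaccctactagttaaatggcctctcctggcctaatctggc
Cflar, chr1:58711241-58711540, plus strand: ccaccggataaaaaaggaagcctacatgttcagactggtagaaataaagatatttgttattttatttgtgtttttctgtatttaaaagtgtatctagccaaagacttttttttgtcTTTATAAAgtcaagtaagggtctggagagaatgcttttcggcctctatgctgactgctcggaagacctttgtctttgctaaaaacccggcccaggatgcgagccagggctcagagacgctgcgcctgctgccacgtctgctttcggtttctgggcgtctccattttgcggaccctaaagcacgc
Bcl2l11, chr2:128125788-128126087, plus strand: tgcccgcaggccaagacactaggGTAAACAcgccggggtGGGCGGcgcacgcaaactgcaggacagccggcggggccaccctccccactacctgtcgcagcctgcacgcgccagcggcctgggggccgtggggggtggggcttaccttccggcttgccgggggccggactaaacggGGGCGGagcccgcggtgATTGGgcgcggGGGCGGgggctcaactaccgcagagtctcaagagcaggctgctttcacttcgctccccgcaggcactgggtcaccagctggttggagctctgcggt

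Both strands were searched for 6 motifs. The GC box GGGCGG occurred in 35.7% of all 32851 promoter windows, the CCAAT box CCAAT in 37.4%, the TATA box TATAAA in 13.6%, the E-box CACGTG in 7.2%, the half-site TGACGT of cAMP response elements in 7.5% and the FOXO motif GTAAACA in 3.6%. The Bcl2l11 window held 3 GC boxes, 1 CCAAT box and 1 FOXO motif and had a G and C content of 71.0%, against a median of 52.7% over all windows. None of the windows printed for the members that rose held a GC box, and their G and C content lay between 45.0% and 56.0%. Bcl2l14 had 1 CCAAT box, Cflar had 2 TATA boxes that overlap on opposite strands, and Aifm2 and Bcl2l1 had no match. A match is a string of letters in a window and not a measured site.

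Some mice stood apart in ways that bear on the values. Mouse 3 at 20 weeks was the farthest from its group: its array correlated with the rest of that age at a median of 0.887 (every other array with its own age at 0.974 or more), showed a Gapdh signal 3.87 higher (log2) at the 3 prime than at the 5 prime end, against 0.046 to 1.68 on the others, and had the lowest upper quartile of all arrays (5.19). At 16 weeks, mice 3 and 4 carried B cell transcripts that the other 3 mice of that age lacked: Cd79a had log2 values of 8.64 and 8.52 in mice 3 and 4, against 2.55 to 2.65 in the others. Mouse 4 at 4 weeks had the lowest upper quartile of its age (5.34, against 5.60 to 5.75 in the other 4-week mice) and the lowest value of its age for all 4 members that rose. Mouse 2 at 16 weeks had the lowest upper quartile of its age too (5.20, against 5.68 to 5.81 in the other 16-week mice). Markers of the gland itself were present in every mouse, with mean log2 values of 9.01 to 11.5 over 10 acinar genes and 11.1 to 11.7 over 3 granular duct genes. Calls that rest on mice 3 and 4 at 16 weeks or mouse 3 at 20 weeks are given with and without them, and so are the 20-week values that mouse 3 moved most.

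**Figure D1:**
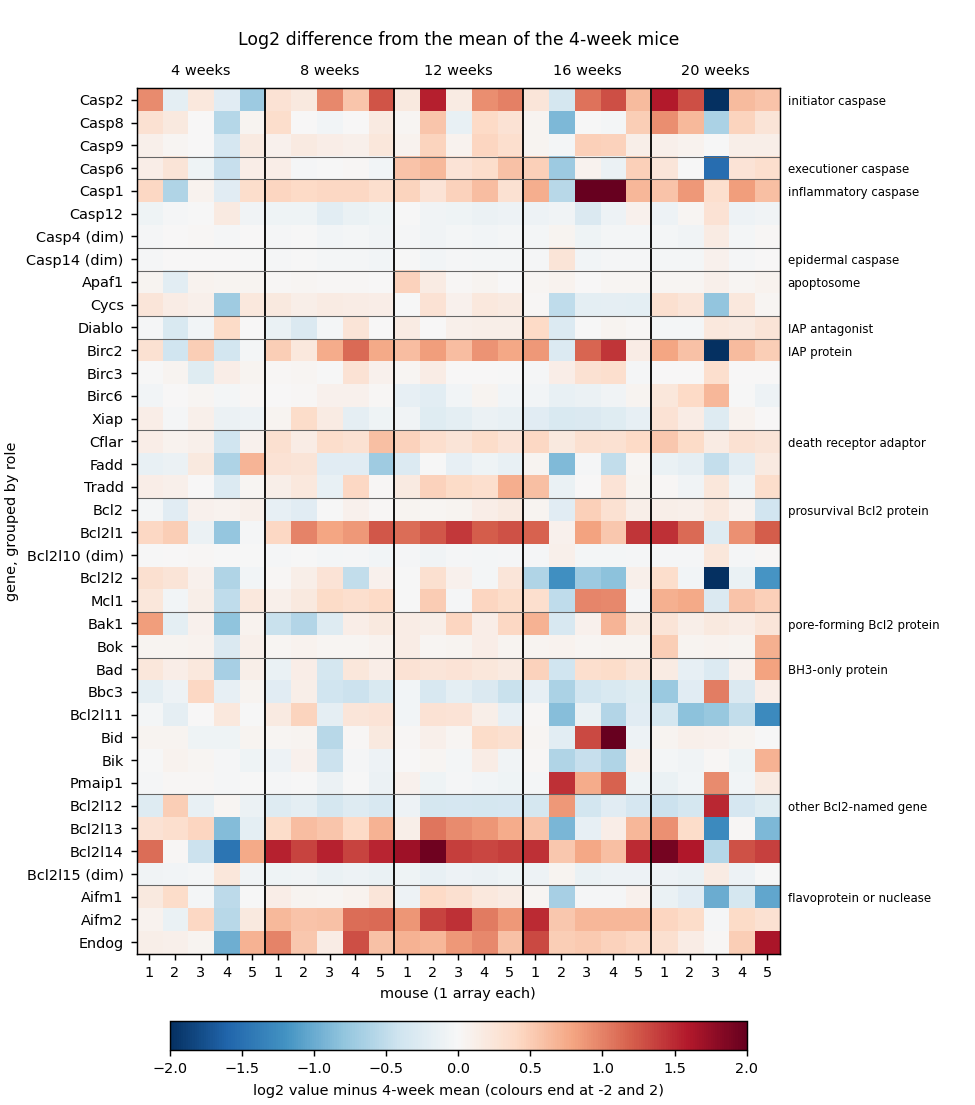
Each row is 1 of the 38 genes, grouped by role, and each column 1 of the 25 mice, by age. Colour is the log2 value minus the mean of the 5 mice at 4 weeks (red higher, blue lower, ending at -2 and 2), and "dim" marks the 4 genes without an expressed probe set. Bcl2l1, Bcl2l14, Aifm2 and Endog are mostly red after 4 weeks, Bcl2l11 is blue in all mice at 20 weeks, and mouse 3 at 20 weeks differs from its neighbours in many rows.

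Across the family, shifts were small. The median log2 fold change of the 34 expressed members against 4 weeks was 0.07 at 8 weeks, 0.18 at 12 weeks, 0.10 at 16 weeks and 0.09 at 20 weeks, beside 0.10, 0.14, 0.02 and 0.07 for all 11696 expressed genes. The age of the highest mean was 12 weeks for 15 of the 34 (44.12%, against 37.33% of all expressed genes), and the lowest mean was at 4 weeks for 15 (44.12%, against 32.65%). The 5 mice lay wholly above the 4-week mice for 3 members at 8 weeks, 7 at 12 weeks, 2 at 16 weeks and 1 at 20 weeks, where 4.58%, 12.5%, 2.22% and 1.22% of all genes did. They lay wholly below for 2, 3, 1 and 1 members, where 4.05%, 21.1%, 2.16% and 1.35% of all genes did, genes without an expressed probe set included. All comparisons with 4 weeks share the same 5 young mice. In whole glands, fewer cells of a type and less RNA per cell cannot be told apart.

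In the comparison of 8 with 4 weeks, 1 member was higher at an adjusted p under 0.05 (Aifm2), where 1.48% of all genes were, and 0 were lower, where 0.78% were (limma, Benjamini-Hochberg over all 18194 genes). At an unadjusted p under 0.05 the counts were 5 higher, where 10% of all genes were, and 0 lower, where 3.91% were. At 12 weeks 4 members were higher (Aifm2, Bcl2l1, Bcl2l14 and Cflar), where 5.66% of all genes were, and 0 lower, where 1.36% were. The unadjusted counts were 9 higher, where 16.1% of all genes were, and 0 lower, where 4.67% were. At 16 weeks 1 member was higher (Aifm2), where 1.71% of all genes were, and 0 lower, where 1.68% were, and unadjusted 8 were higher and 3 lower, where 8.37% and 6.06% of all genes were. At 20 weeks 0 were higher, where 1.14% of all genes were, and 1 was lower (Bcl2l11), where 1.52% were, and unadjusted 5 were higher and 2 lower, where 7.12% and 5.29% of all genes were. The F-test for any change over the 5 ages called 2 members, Aifm2 (adjusted p = 0.00495) and Bcl2l11 (adjusted p = 0.00714), where 4.66% of all genes were called. The same 2 had a B-statistic (log odds of a trend with age) above 1.5 in at least 1 polynomial term, where 1.92% of all genes did.

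Between later neighbouring ages no member passed. For 12 against 8 weeks 0.0055% of all genes were higher and 0% lower, for 16 against 12 weeks 0% higher and 0.0055% lower, and for 20 against 16 weeks 0.011% higher and 0.0165% lower. Unadjusted, limma gave 1 member higher and 1 lower for 12 against 8 weeks (2.62% and 1.25% of all genes), 1 higher and 3 lower for 16 against 12 weeks (2.19% and 5.47%), and 4 higher and 4 lower for 20 against 16 weeks (3.83% and 3.39%).

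**Figure D2:**
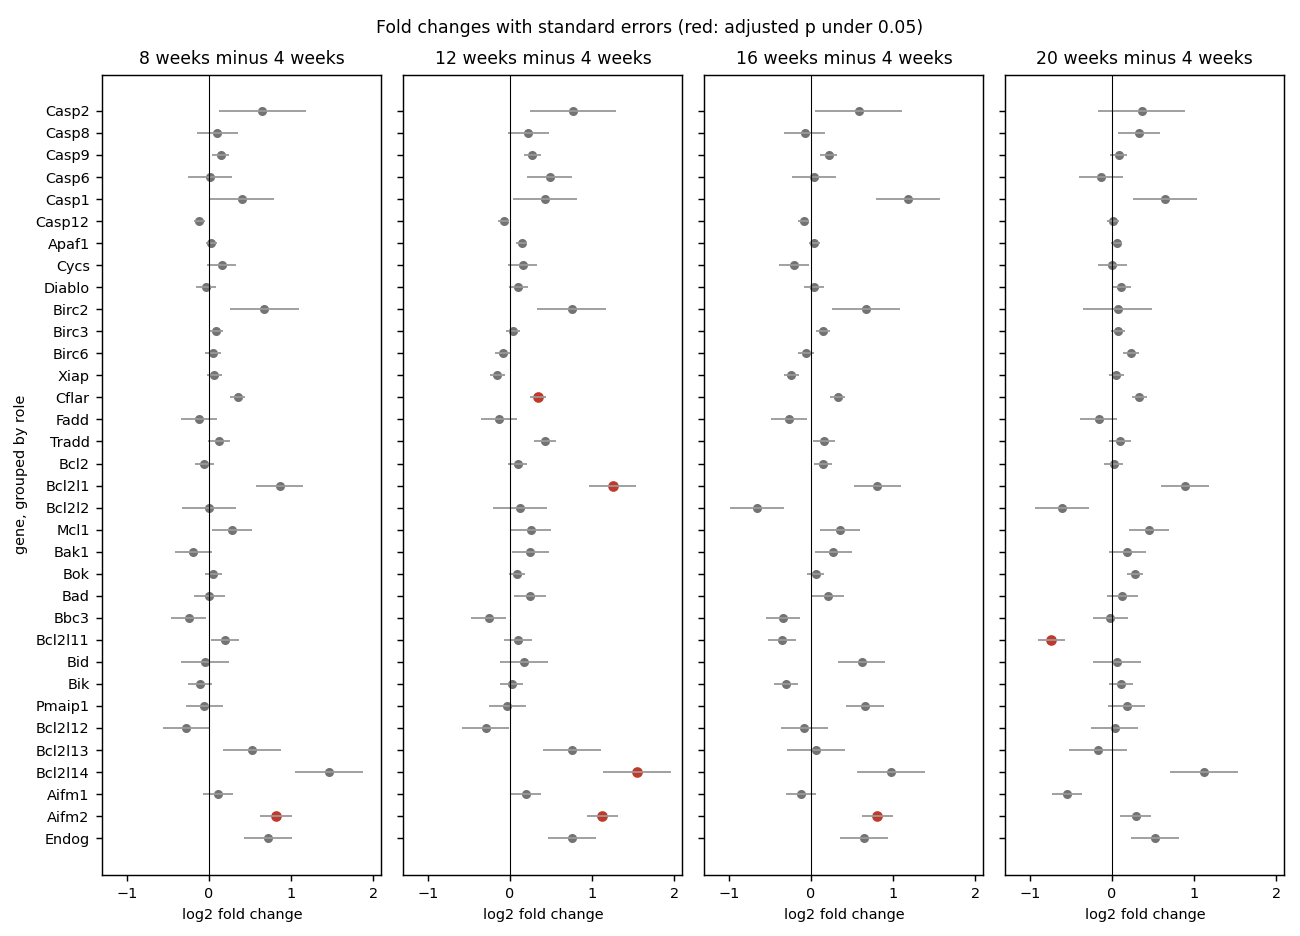
Log2 fold change against 4 weeks (horizontal axis) of the 34 genes with an expressed probe set, grouped by role, at 8, 12, 16 and 20 weeks. Bars are standard errors and red points have an adjusted p under 0.05, which are Aifm2 at 8, 12 and 16 weeks, Bcl2l1, Bcl2l14 and Cflar at 12 weeks and Bcl2l11 at 20 weeks.

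Among the flavoproteins and nucleases, Aifm2 rose at 8, 12 and 16 weeks, with its highest mean at 12 weeks. It encodes a flavoprotein oxidoreductase, first described as a relative of the apoptosis-inducing factor and known to reduce ubiquinone and to protect cells from ferroptosis. In the 5 mice its log2 values were 3.25, 3.05, 3.59, 2.63 and 3.38 at 4 weeks and 3.83, 3.75, 3.77, 4.30 and 4.31 at 8 weeks. They were 4.07, 4.53, 4.65, 4.22 and 4.05 at 12 weeks, 4.67, 3.72, 3.84, 3.84 and 3.85 at 16 weeks and 3.60, 3.55, 3.15, 3.56 and 3.49 at 20 weeks. Every mouse at 8, 12 and 16 weeks was above every mouse at 4 weeks, while at 20 weeks 4 of 5 mice lay within the 4-week range. The log2 fold change was 0.81 at 8 weeks (SE 0.19, adjusted p = 0.0243), 1.12 at 12 weeks (SE 0.19, adjusted p = 0.00127) and 0.81 at 16 weeks (SE 0.19, adjusted p = 0.0185), and 0.29 at 20 weeks (adjusted p = 0.647). Its 2 expressed probe sets had 12-week log2 fold changes of 0.67 (adjusted p = 0.0648) and 1.57 (adjusted p = 0.00387) when tested singly, and its other probe set, not expressed, had 0.0245. The probe set with 1.57 averaged 3.05 at 4 weeks and Aifm2 as a gene 3.18, both below the level of 3.27 used for expression, so each fold change of Aifm2 is set against a 4-week value near background. The 12-week call held without any single mouse. The 8-week call was lost without mouse 2 (0.78) or 4 (0.68) at 4 weeks or mouse 4 or 5 at 8 weeks (both 0.74), and the 16-week call without mouse 2 (0.77) or 4 (0.67) at 4 weeks, without mouse 1 at 16 weeks (0.63), or without mice 3 and 4 at 16 weeks together (0.90, adjusted p = 0.0518).

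The other genes of the group did not pass. Endog, the mitochondrial endonuclease G, had log2 fold changes of 0.71, 0.75, 0.64 and 0.53 at 8, 12, 16 and 20 weeks, with an SE of 0.29. Aifm1, the apoptosis-inducing factor itself, had values of 8.89, 8.79, 8.03, 8.67 and 7.99 at 20 weeks, against 9.22, 9.40, 8.98, 8.51 and 9.02 at 4 weeks, a log2 change of -0.55 (SE 0.18, adjusted p = 0.128). Mice 3 and 5 at 20 weeks lay below every 4-week mouse and the other 3 within their range. Without mouse 4 at 4 weeks, the lowest of its age, Aifm1 passed as lower at 20 weeks (-0.68, adjusted p = 0.0491).

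**Figure D3:**
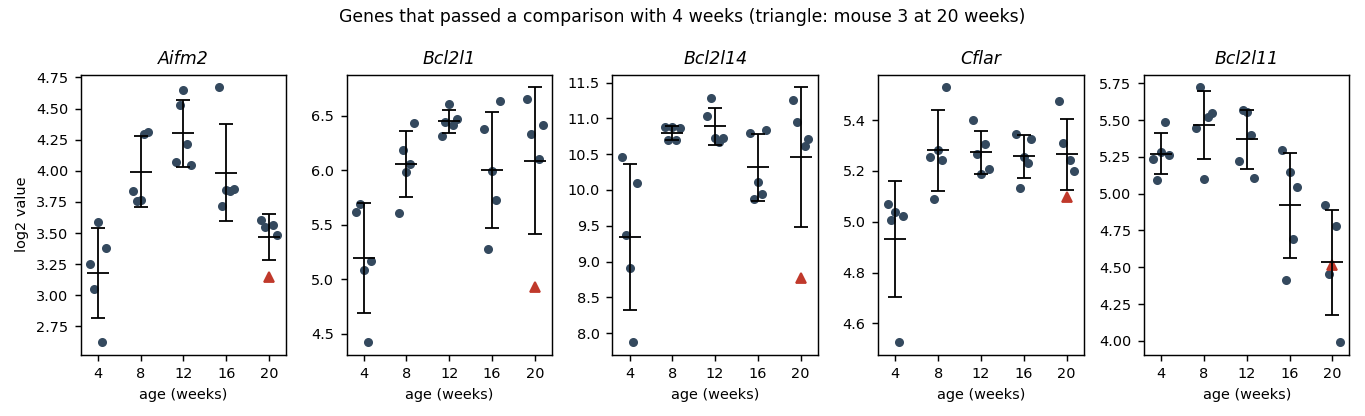
Log2 value of the 5 genes that passed a comparison with 4 weeks, by age, with 1 point per mouse, the mean as a bar and the SD as whiskers (n = 5). The triangle is mouse 3 at 20 weeks. Aifm2 is highest at 12 weeks, and Bcl2l1 and Bcl2l14 are above most 4-week values at later ages except in that mouse. Cflar, averaged over unlike probe sets, is at about one level from 8 to 20 weeks, and Bcl2l11 is lowest at 20 weeks.

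Among the prosurvival genes Bcl2l1, which encodes Bcl-xL, rose at 12 weeks. Its log2 values were 5.62, 5.69, 5.09, 4.43 and 5.17 at 4 weeks and 5.61, 6.19, 5.98, 6.06 and 6.44 at 8 weeks. They were 6.31, 6.44, 6.61, 6.42 and 6.47 at 12 weeks, 6.38, 5.28, 6.00, 5.73 and 6.63 at 16 weeks and 6.66, 6.33, 4.93, 6.10 and 6.41 at 20 weeks. The 12-week mice lay close together and above all 4-week mice, whereas the other ages overlapped with 4 weeks by 1 mouse each, at 20 weeks by mouse 3. The log2 fold change was 1.25 at 12 weeks (SE 0.29, adjusted p = 0.0107), and 0.86, 0.81 and 0.89 at 8, 16 and 20 weeks (adjusted p = 0.133, 0.147 and 0.116). Its 2 expressed probe sets had 12-week log2 fold changes of 1.20 and 1.31, and tested singly the brighter passed (adjusted p = 0.0184) and the other did not (adjusted p = 0.0722). The call held without any single mouse and under each alternative that was tried. For single probe sets, the one with the smaller p was counted. Without mouse 3 at 20 weeks Bcl2l1 passed at all 4 ages, with log2 fold changes of 0.86, 1.25, 0.81 and 1.18 (adjusted p = 0.0307, 0.00127, 0.0383 and 0.00572).

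The remaining prosurvival genes did not pass. Mcl1, a short-lived protein that binds Bim and Bak1, had log2 fold changes of 0.28, 0.26, 0.35 and 0.45 at 8, 12, 16 and 20 weeks. After quantile normalization Mcl1 had -0.04, -0.14, 0.16 and 0.33. Bcl2 itself had -0.058, 0.093, 0.15 and 0.021 as deposited. Bcl2l2, which encodes Bcl-w, had -0.0003, 0.12, -0.65 and -0.61. Its lower values at 20 weeks came from mice 3 and 5 (6.17 and 7.02), while mice 1, 2 and 4 (8.07 to 8.55) lay within or above the 4-week range of 7.60 to 8.52. Without mouse 3 the 20-week value of Bcl2l2 was -0.26.

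Of the Bcl2-named genes with no settled place in these groups, Bcl2l14, which encodes Bcl-G, rose at 12 weeks and had the widest difference among the age means of all members. Its log2 values were 10.46, 9.37, 8.91, 7.88 and 10.10 at 4 weeks and 10.88, 10.69, 10.88, 10.70 and 10.86 at 8 weeks. They were 11.03, 11.28, 10.72, 10.67 and 10.73 at 12 weeks, 10.80, 9.88, 10.12, 9.95 and 10.84 at 16 weeks and 11.26, 10.95, 8.78, 10.62 and 10.71 at 20 weeks. The mice differed least at 8 weeks (SD 0.10) and most at 4 weeks (SD 1.02), and no mouse at 8 or 12 weeks overlapped with 4 weeks. The log2 fold change was 1.55 at 12 weeks (SE 0.41, adjusted p = 0.0265), and 1.46, 0.98 and 1.12 at 8, 16 and 20 weeks (adjusted p = 0.0675, 0.254 and 0.196). Both probe sets were higher at 12 weeks, by 1.43 and 1.66. The 12-week call was lost without mouse 3 (1.44) or 4 (1.18) at 4 weeks or mouse 1 (1.51) or 2 (1.45) at 12 weeks. It passed at 8 weeks too without mouse 1 (1.74) or 5 (1.65) at 4 weeks, and at 8, 12 and 20 weeks without mouse 3 at 20 weeks (1.46, 1.55 and 1.54).

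Bcl2l13 and Bcl2l12 did not pass. Bcl2l13, a mitochondrial protein of the family, had 0.53, 0.75, 0.058 and -0.17 at 8, 12, 16 and 20 weeks with an SE of 0.35. Bcl2l12 had -0.28, -0.30, -0.082 and 0.032, with 5.33 in mouse 3 at 20 weeks, against 3.39 to 3.59 in the other 20-week mice.

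Among the BH3-only genes Bcl2l11 fell at 20 weeks. Bim binds every prosurvival Bcl2 protein and is required for the deletion of self-reactive lymphocytes. Its log2 values were 5.24, 5.09, 5.28, 5.49 and 5.26 at 4 weeks and 5.45, 5.72, 5.10, 5.52 and 5.55 at 8 weeks. They were 5.22, 5.57, 5.55, 5.39 and 5.11 at 12 weeks, 5.30, 4.42, 5.14, 4.69 and 5.04 at 16 weeks and 4.92, 4.46, 4.51, 4.78 and 3.99 at 20 weeks. All 20-week mice lay below all 4-week mice, and at 16 weeks 3 of 5 did. The log2 fold change was -0.74 at 20 weeks (SE 0.17, adjusted p = 0.0172), and 0.20, 0.10 and -0.35 at 8, 12 and 16 weeks (adjusted p = 0.703, 0.727 and 0.338). The call held without any single mouse, and without mouse 3 at 20 weeks the value was -0.73. Its expressed probe sets differed in size: 1 had a 20-week log2 fold change of -1.29 (adjusted p = 0.0245), with values of 5.07, 4.31, 4.37, 4.75 and 3.36 at 20 weeks, against 5.47, 5.66, 5.59, 6.13 and 5.48 at 4 weeks. The other had -0.19, with 4.60 to 4.81 at 20 weeks, against 4.53 to 5.05 at 4 weeks.

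Of the other BH3-only genes none passed at any age. Bbc3 (Puma), a direct p53 target, had log2 fold changes of -0.25, -0.26, -0.34 and -0.023, with 8.20 in mouse 3 at 20 weeks, against 6.44 to 7.30 in the other mice of that age. Bad, whose protein is switched off by growth factor kinases, had 0.0036, 0.24, 0.21 and 0.13, and Bik -0.11, 0.018, -0.31 and 0.10. Bid and Pmaip1 (Noxa) were highest at 16 weeks and are given with Casp1. Of the pore-forming genes, Bak1 had -0.19, 0.25, 0.27 and 0.19 at 8, 12, 16 and 20 weeks. Bok, a pore-forming protein that is held low by proteasomal degradation, had 0.053, 0.085, 0.055 and 0.28. It had values of 3.85 and 4.06 in mice 1 and 5 at 20 weeks, against 3.40 to 3.42 in mice 2, 3 and 4, and passed at 20 weeks when mouse 3 was left out (0.33, adjusted p = 0.0474).

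Among the death receptor adaptors Cflar, averaged over 4 unlike probe sets, was higher by about the same small amount at every later age. Its protein, c-FLIP, resembles Casp8 without its activity and limits or tunes Casp8 activation at death receptors. The log2 values were 5.07, 5.01, 5.04, 4.53 and 5.02 at 4 weeks and 5.26, 5.09, 5.28, 5.24 and 5.53 at 8 weeks. They were 5.40, 5.27, 5.19, 5.30 and 5.21 at 12 weeks, 5.34, 5.13, 5.25, 5.23 and 5.32 at 16 weeks and 5.48, 5.31, 5.10, 5.24 and 5.20 at 20 weeks. Every mouse of every later age lay above all 4-week mice, where mouse 4 was the lowest of all 25. The log2 fold changes were 0.35, 0.34, 0.32 and 0.33 at 8, 12, 16 and 20 weeks (SE 0.094), and the 12-week one passed (adjusted p = 0.0305) while the others had adjusted p of 0.0531, 0.061 and 0.061. The gap was narrow, as the highest 4-week value was 5.07 and the lowest value was 5.09 at 8 weeks and 5.10 at 20 weeks. Each later age is set against the same 4-week mice. How many of all genes lacked overlap at every later age was not counted, so the missing overlap cannot set Cflar apart from the whole array. At 20 weeks alone 1.22% of all genes lay wholly above. The 12-week call was lost without mouse 4 at 4 weeks (0.24) or mouse 1, 2 or 4 at 12 weeks (0.31, 0.34 and 0.33), and without mouse 3 at 20 weeks Cflar passed at all 4 ages (0.35, 0.34, 0.32 and 0.37). Leaving out mouse 1 at 4 weeks, mouse 2 or 5 at 8 weeks, mouse 2 at 16 weeks or mouse 1 at 20 weeks also added 1 or more of the calls at 8, 16 and 20 weeks, with log2 fold changes of 0.32 to 0.39.

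The 12-week call of Cflar was lost under 6 of 13 alternatives too (adjusted p up to 0.283), among them quantile normalization (0.21, adjusted p = 0.0746) and the mean of all its probe sets (0.20, adjusted p = 0.283). The gene value of Cflar averages probe sets that behaved differently. A pair of bright ones had 12-week log2 fold changes of 0.60 and 0.87 and 20-week ones of 0.98 and 0.32, and of these the probe set with 0.87 passed at 12 weeks (adjusted p = 0.0176). A pair of dim ones, with means of 3.54 and 3.68 at 12 weeks, against 3.66 and 3.67 at 4 weeks, did not move by more than 0.2. The other adaptors did not pass. Tradd, the adaptor of the TNF receptor, had values of 5.94, 6.22, 6.14, 6.09 and 6.48 at 12 weeks, against 5.89, 5.85, 5.76, 5.47 and 5.78 at 4 weeks, with no overlap and a log2 change of 0.42 (SE 0.13, adjusted p = 0.0577), and passed without mouse 1 at 12 weeks (0.48) and, at the same 0.42, without mouse 1 or 2 at 16 weeks or mouse 3 at 20 weeks (adjusted p = 0.0335 to 0.0477). Fadd had -0.12, -0.13, -0.26 and -0.16 at 8, 12, 16 and 20 weeks.

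No caspase passed at any age. The initiator Casp2 had log2 fold changes of 0.65, 0.77, 0.58 and 0.36 at 8, 12, 16 and 20 weeks, but its mice were the most widely spread of the members within an age, with 4.54 to 6.22 at 4 weeks and 3.00 in mouse 3 at 20 weeks, against 5.84 to 6.85 in the other 20-week mice (SE 0.53). Without mouse 3 its 20-week value was 1.02. Casp8, the initiator of the death receptor pathway, had 0.10, 0.22, -0.079 and 0.33, and Casp9, the caspase of the apoptosome, 0.14, 0.27, 0.22 and 0.081. Casp6, an executioner caspase, had values of 9.55, 9.63, 9.26, 9.33 and 9.56 at 12 weeks, against 9.12, 9.25, 8.90, 8.53 and 9.12 at 4 weeks. All 12-week mice lay above the 4-week mice, and the log2 fold change was 0.48 (SE 0.27, adjusted p = 0.337), and 0.08 after quantile normalization. Casp12, a relative of the inflammatory caspases, had -0.12, -0.077, -0.091 and 0.012. Of the apoptosome genes, Apaf1 had 0.026, 0.14, 0.04 and 0.057 and Cycs, cytochrome c, 0.15, 0.15, -0.21 and 0.0047.

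Of the IAP genes and their antagonist none passed. Birc2, a ubiquitin ligase of the TNF receptor complex, had values of 7.37, 7.58, 7.36, 7.65 and 7.53 at 12 weeks, against 7.05, 6.35, 7.24, 6.38 and 6.71 at 4 weeks. The groups did not overlap, and the log2 fold change was 0.75 (SE 0.42, adjusted p = 0.333), and without mouse 3 at 20 weeks, which had 4.60, the adjusted p was 0.0471. Xiap, the direct caspase inhibitor, had values of 4.88, 4.81, 4.82, 4.86 and 4.95 at 16 weeks, against 5.24, 5.09, 5.21, 4.999 and 5.01 at 4 weeks, all lower, with a log2 change of -0.24 (SE 0.092, adjusted p = 0.18). Birc3, Birc6 and Diablo had fold changes between -0.09 and 0.23 at all ages.

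The inflammatory caspase Casp1, which matures interleukin-1 beta and cleaves gasdermin D, had its highest values in mice 3 and 4 at 16 weeks. Its log2 values were 5.02, 3.72, 6.79, 6.85 and 4.95 at 16 weeks, against 4.69, 3.69, 4.35, 4.05 and 4.63 at 4 weeks, a log2 change of 1.18 (SE 0.39, adjusted p = 0.113). The 5 B cell markers had mean log2 values of 7.09 in both mice, against 2.75 to 2.87 in the other mice of that age, and their sum ranged from 13.7 to 35.5 at 16 weeks, against 13.99 to 21.8 at 4 weeks. The T cell gene Cd3d had 6.48 and 6.16 in the same mice, against 2.12 to 2.18 in the others, whereas Cd3g was at 2.34 to 2.54 in all 5. The 7 T cell markers summed to 21.2 to 28.6 at 16 weeks, against 21.3 to 24.3 at 4 weeks, and 5 of them had no expressed probe set. The 8 macrophage markers summed to 56.5 to 67.7, against 53.6 to 61.6. The part of these cells in the Casp1 values was not tested. Left out together, these 2 mice took the 16-week log2 fold change to 0.28 (adjusted p = 0.945). Without mouse 2 at 16 weeks, which had 3.72, Casp1 passed as higher (1.62, adjusted p = 0.00488).

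Bid, the BH3-only protein cleaved by Casp8, was highest in the same mice. Its mean over all 25 mice was 3.28, just above the level used for expression, which it passes through these 2 mice. It had 3.16, 2.91, 4.44, 5.13 and 3.02 at 16 weeks, against 3.17, 3.18, 3.04, 3.04 and 3.17 at 4 weeks (log2 fold change 0.62, SE 0.29, adjusted p = 0.33), and -0.09 without mice 3 and 4. Mcl1 was highest in them too, with 9.83 and 9.81, against 8.34 to 9.19 in the other 16-week mice, and its 16-week log2 fold change was 0.35 with them and -0.07 without. Birc2 had 0.67 with and 0.25 without them, and Casp2 0.58 and 0.17. Pmaip1, a p53-induced partner of Mcl1, was high in mice 2, 3 and 4 at 16 weeks (3.47, 4.97, 4.25, 4.68 and 3.42, against 3.48, 3.53, 3.53, 3.49 and 3.50 at 4 weeks) and in mouse 3 at 20 weeks (4.45), with a 16-week log2 fold change of 0.65 (SE 0.23, adjusted p = 0.138) and 0.45 without mice 3 and 4. It passed without mouse 5 at 16 weeks (0.84, adjusted p = 0.0387).

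**Figure D4:**
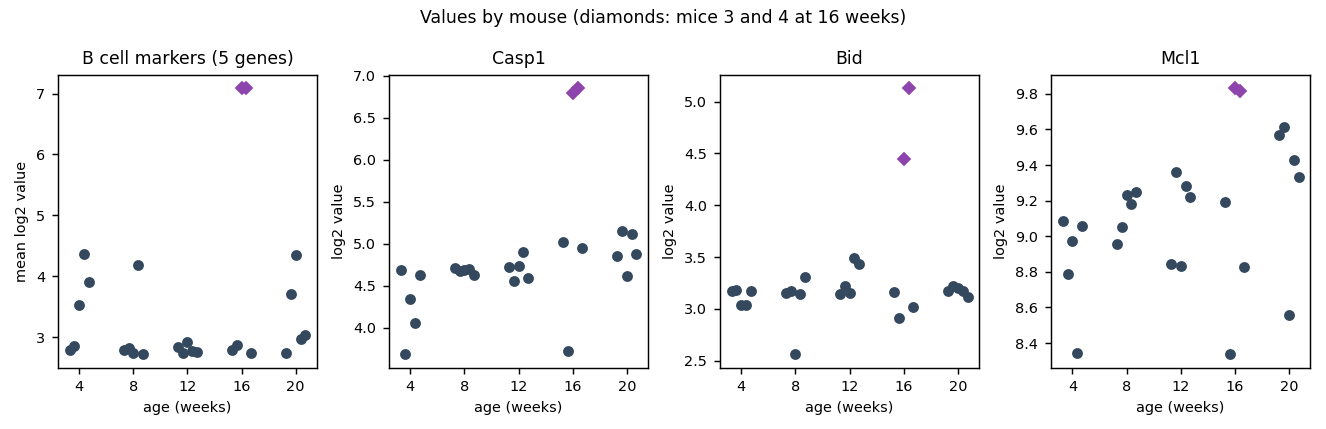
Mean log2 value of 5 B cell markers and log2 values of Casp1, Bid and Mcl1 in each of the 25 mice, by age in weeks. Diamonds are mice 3 and 4 at 16 weeks, at 7.09 for the B cell markers, 6.79 and 6.85 for Casp1, 4.44 and 5.13 for Bid and 9.83 and 9.81 for Mcl1, the highest of all mice in each panel.

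At 20 weeks mouse 3 was the lowest of its age for 18 of the 34 expressed members (52.94%, against 50.78% of all expressed genes) and the highest for 8 (23.53%, against 30.25%). The largest gaps to the mean of the other mice were -3.28 for Casp2, -2.77 for Birc2 and -2.11 for Bcl2l14, and 1.85 for Bcl2l12 and 1.31 for Bbc3. Leaving it out turned the 20-week log2 fold change of Bcl2l13 to 0.10, that of Bcl2l12 to -0.34 and that of Bcl2 to -0.026. Among expressed members it also turned Casp6 from -0.14 to 0.21, Pmaip1 from 0.18 to -0.013 and Casp12 from 0.012 to -0.058. It took Bbc3 to -0.28, Casp8 to 0.57, Cycs to 0.20, Bad to 0.225 and Fadd to -0.086, none of which passed. At 20 weeks Birc2 had 0.071 with the mouse and 0.62 without it, and Mcl1 0.45 and 0.63, and neither passed. Without this mouse, 4 members passed as higher at 20 weeks (Bcl2l1, Bcl2l14, Bok and Cflar), where 6.23% of all genes did, and 1 as lower (Bcl2l11), where 2.65% did. The counts of higher members became 4 at 8 weeks, 6 at 12 weeks and 3 at 16 weeks, where 5.14%, 13.3% and 4.11% of all genes were higher.

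**Figure D5:**
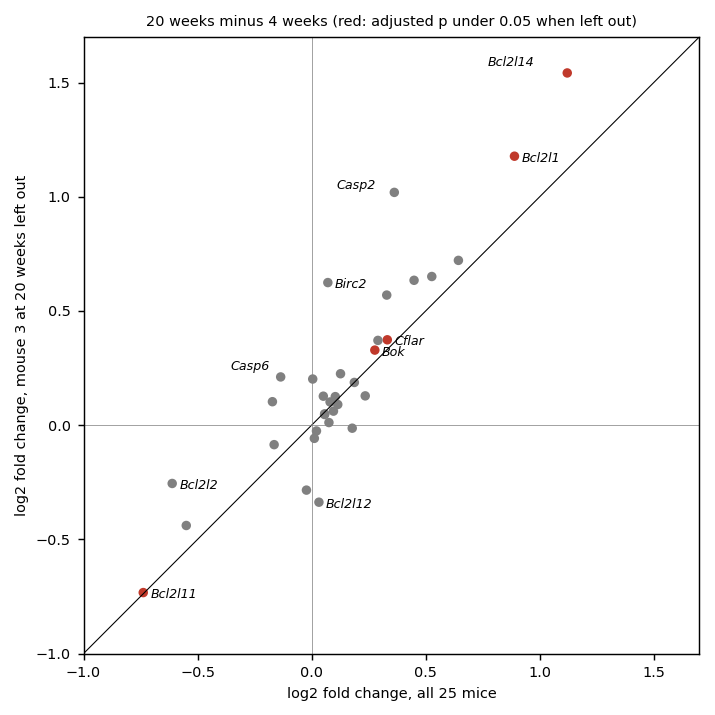
Log2 fold change at 20 weeks against 4 weeks of the 34 genes with an expressed probe set, from all 25 mice (horizontal) and without mouse 3 at 20 weeks (vertical). The line marks equal values and red points pass without that mouse. Casp2 and Birc2 lie far above the line (1.02 without, against 0.36 with the mouse, for Casp2), and Bcl2l11 lies on it.

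Around the family, 8 lists of pathway genes held 65 measured genes, 50 of them expressed. At 8 weeks 2 were higher and 1 lower, at 12 weeks 6 and 2, at 16 weeks 0 and 1 and at 20 weeks 1 and 2. At 12 weeks these were 9.23% and 3.08% of the 65, where 5.66% and 1.36% of all genes were higher and lower, and at 20 weeks 1.54% and 3.08%, where 1.14% and 1.52% were. At 8 weeks they were 3.08% and 1.54%, where 1.48% and 0.78% of all genes were. The 16-week shares were 0% and 1.54%, where 1.71% and 1.68% of all genes were. Birc5 was lower at every age. It encodes survivin, an IAP-fold protein that serves chromosome segregation in dividing cells (log2 fold changes of -2.79, -2.75, -2.28 and -2.69, adjusted p of 5.3e-05 or less). The dividing cell markers fell with it: Mki67, Cdk1 and Ccnb2, 3 of 7 measured, were lower at each later age, and the summed level of the 7 was 20.6 to 21.6 at 8 weeks and 20.6 to 25.04 at 20 weeks (the highest in mouse 3), against 28.6 to 33.0 at 4 weeks. The remaining IAP-related genes of the list did not pass.

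Of 10 p53-related genes, Aen, an apoptosis-enhancing nuclease, rose at 8 and 12 weeks (1.45 at both, SE 0.35, adjusted p = 0.0298 and 0.0149), Perp rose at 12 weeks (0.74) and Trp53inp1 at 20 weeks (1.22, SE 0.32, adjusted p = 0.04). Of 7 further BH3 or mitophagy genes, Bnip3 (0.98) and Bnipl (1.41) rose at 12 weeks and Bmf, another BH3-only gene, fell at 20 weeks (-0.85, SE 0.21, adjusted p = 0.028). Of 9 caspase substrates and nucleases, Dffa, which encodes the inhibitor of the caspase-activated DNase, rose at 8 and 12 weeks (0.75 and 0.78, SE 0.19). Of 10 Bcl2 co-regulators Hax1 rose at 12 weeks (0.65, SE 0.19). Of 8 death receptors and ligands Tnfrsf10b fell at 12 weeks by 0.17 on the log2 scale and had no expressed probe set. None of 8 necroptosis or receptor-proximal genes and none of 8 inflammasome genes passed at any age in limma.

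Some marker transcripts of several cell types changed over the same ages. Of 6 fibroblast markers, 3 or 4 fell at each later age (Col1a1, Col1a2 and Col3a1 at all), with summed levels of 43.4 to 46.6 at 12 weeks and 37.6 to 47.9 at 20 weeks, against 51.5 to 55.2 at 4 weeks. Of 10 acinar markers only Smgc passed, lower at 16 and 20 weeks. The 8 macrophage markers, all expressed, had summed levels of 61.5 to 66.2 at 12 weeks, against 53.6 to 61.6 at 4 weeks, where 1 passed as higher (Cd14), and C1qb passed as higher at 16 weeks (0.94). Of 6 endothelial markers, 3 of them without an expressed probe set, Cdh5, Kdr and Cldn5 fell at 12 weeks, Kdr and Tek at 16 weeks and Kdr at 20 weeks (-1.17), with summed levels of 17.3 to 17.96 at 12 weeks, against 18.1 to 20.4 at 4 weeks. Klk1, 1 of 3 granular duct markers, fell at 12, 16 and 20 weeks (-0.29, -0.41 and -0.425). The part of these cells in the changes of Aifm2, Bcl2l1, Bcl2l14, Cflar and Bcl2l11 was not tested.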

How the data were processed

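The table the authors deposited holds log2 values of 45101 probe sets, 1 column per mouse. For their summary the methods state GCRMA, whereas RMA stands in the submitters' processing notes, and versions are not given in the sources used here. Values lay between 0.13 and 16.9 and were used as deposited. Array medians lay between 3.17 and 3.64. Precision is limited by signal over background and by 5 mice per age.

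Of 35890 annotated probe sets, 34958 with 1 symbol were used and 932 with several were left out, as were 9211 without an annotation line. Expressed probe sets were averaged per gene, and all probe sets of genes that had none, giving 18194 genes. A single limma 3.58.1 fit (R 4.3.3) held the 25 arrays and, following the methods, no covariate. Each age was compared with 4 weeks and with the age before it, two-sided, adjusted after Benjamini and Hochberg over every gene, and rose, fell and passed mean an adjusted p under 0.05. A moderated F-test and B-statistics of polynomials of degree 1 to 4 (prior share 0.01) tested change over all ages. Simulated data with known changes were used to test the fit. Promoters came from RefSeq windows and were searched with Python 3.11.15.

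The members, the pathway lists and the marker lists were chosen with earlier results of these data known, and the study itself drew attention to some of these genes in the same samples, so no list is independent evidence. Members that passed a comparison or the F-test were named with the value of every mouse. Other members were given by their fold changes. Values per mouse for members that did not pass were chosen after they were seen, as were the settings that leave out 2 mice together. Other settings were all probe sets or the brightest, single probe sets, quantile normalization, the upper quartile or the Gapdh difference as a covariate, array weights, a trend and robust prior, only expressed genes, only the 2 ages compared, the replicate number as a block, another prior share (0.05), and leaving out each mouse.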

Additional observations from a re-analysis of the deposited data

Results flagged for a closer look

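Of 60 groups of 5 mice checked (12 genes at 5 ages), 8 held a mouse whose gap to its nearest neighbour was more than 0.71 of the range of the group, a limit that chance passes in about 5% of groups. Of these, 4 were mouse 3 at 20 weeks, the array that stood apart as a whole. It was lowest for Aifm2 (3.15, with the next mouse at 3.49), for Bcl2l14 (8.78, next 10.6) and for Casp6 (7.46, next 8.97), and highest for Pmaip1 (4.45, next 3.68). The other 4 were spread over 4 mice. Mouse 1 at 16 weeks was highest for Aifm2 (4.67, next 3.85), and without it the 16-week call of Aifm2 was lost (log2 fold change 0.63). Mouse 4 at 4 weeks was lowest for Cflar (4.53, next 5.01). Mouse 2 at 16 weeks was lowest for Aifm1 (8.36, next 8.996). Mouse 3 at 8 weeks was lowest for Bid (2.56, next 3.15).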

How the results depend on the processing

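Among the called members, the 12-week increases of Aifm2 (0.76 to 1.57) and Bcl2l1 (0.66 to 1.31) passed under all 13 alternatives and without any single mouse. Where probe sets were tested singly, the one with the smallest p stood for the gene. Aifm2 and Bcl2l1 each have an expressed probe set that did not pass at 12 weeks. The 20-week decrease of Bcl2l11 (-1.29 to -0.30) passed in 12 of 13 and without any single mouse. The -1.29 is its expressed probe set with the smaller p, and the other averaged 4.69 at 20 weeks, against 4.88 at 4 weeks. Bcl2l14 at 12 weeks passed in 11 of 13 (adjusted p = 0.000559 to 0.0659), Cflar at 12 weeks in 7 (0.00449 to 0.283), and Aifm2 in 9 at 8 weeks and 10 at 16 weeks. No direction turned. The counts of called members were 1, 4, 1 and 1 at 8, 12, 16 and 20 weeks, 2 by the F-test and 0 between later neighbouring ages. They became 4, 18, 8, 12, 16 and 5 with array weights, which called 12.9%, 54.9%, 19.9% and 35.9% of all genes at the 4 ages, 37.7% by the F-test and 9.33% between neighbouring ages, and 11 of the 18 members at 12 weeks were higher and 7 lower (20.5% and 34.4% of all genes). The counts that follow are given without shares of all genes, so they cannot tell the members from the whole array. With the Gapdh difference as a covariate the counts were 4 at 8 weeks, 6 at 16 weeks, 6 at 20 weeks and 9 by the F-test. With the upper quartile as a covariate they were 0, 2, 5, 6, 9 and 1, and after quantile normalization 2 at 8 weeks, 5 at 16 weeks, 6 at 20 weeks, 8 by the F-test and 1 between neighbouring ages. Without mouse 3 at 20 weeks and mouse 2 at 16 weeks they were 4, 8, 6, 8 and 8, and without mice 3 and 4 at 16 weeks 0 at 16 weeks. With only the 2 ages compared, a setting with fewer mice in the fit, they were 0 at 8, 16 and 20 weeks. The 8-week count was 2 with only expressed genes, and the 16-week count was 2 with the brightest probe set and 0 with single probe sets. The cause of the differences between settings was not tested. Leaving out single mice gave 0 to 4 calls at 8 weeks, 2 to 6 at 12 weeks, 0 to 3 at 16 weeks, 1 to 5 at 20 weeks, 2 to 6 by the F-test, 0 between neighbouring ages and 1 to 2 by the B-statistic.

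Quantile normalization put the 12-week median of the expressed genes at -0.0055, against 0.14 as deposited. It changed the split of all calls to 641 higher and 500 lower, against 1029 and 247 as deposited, and at 8 weeks to 281 and 321, against 269 and 142. At 20 weeks the split was 357 and 697, against 207 and 276. Quantile normalization also turned the 12-week direction of some members that did not pass. Among them were Mcl1 (0.26 to -0.14), Casp8 (0.22 to -0.12), Cycs (0.15 to -0.15) and Aifm1 (0.20 to -0.20). Others kept theirs, such as Endog (0.75 to 0.43), so small rises of uncalled members depend on the array scaling. Replicate numbers did not pair the mice: 15 of 50 same-numbered pairs had deviations correlated above 0.1 (median -0.0429). With the replicate number as a block the counts were 2 at 8 weeks (Bcl2l14 added), 4, 1 and 1 at the later ages and 2 by the F-test, and no other call changed. Array values carry no read depth, and members near 3.27, such as Aifm2, Bid and Bok, lie close to background.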
